A study of Mus musculus with 2 samples.

Results

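The acute phase proteins that hepatocytes secrete are described here through 10 genes: Saa1, Saa2, Saa3, Saa4, Orm1, Orm2, Hp, Lcn2, Hpx and Crp. They were taken by symbol from the feature lists, and all 10 were among the 32285 features that both matrices share. The droplet single-cell study set hepatocytes beside liver progenitor-like cells of a diet injury and cells of induced hepatocellular carcinoma. It has 2 libraries of mouse liver cells freed by perfusion (strain C57BL/6J;129S6/SvEvTac), read with 3' chemistry. The DDC library pooled 2 wild-type mice on normal diet, at day 0, with 2 Sox9-EGFP reporter mice fed DDC for 2 weeks; DDC is a compound that blocks haem synthesis and injures bile ducts. The DDC and cMet library likewise pooled 2 wild-type mice of day 0 with 2 Sox9-CreERT2:Rosa26-mTmG mice at 5 months of treatment with DDC and cMet, the gene of the HGF receptor, which was brought in by HTVi (hydrodynamic tail vein injection). Sox9 sequences drive both the reporter and the Cre, so they mark cells by Sox9 and not by injury or tumour. Barcodes carry no mouse or time, so each library is 1 mixed sample and its condition cannot be told apart from the library itself. With 1 library a group there is no replicate error and no test: values are compared by size, and a ratio of at least 2-fold is the rule for calling a difference.

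The acute phase response is the change in plasma proteins made by the liver during infection or injury. Interleukin-6 signalling through STAT3, and interleukin-1 and tumour necrosis factor through NF-kappaB, act with C/EBP factors on hepatocyte promoters, so the proteins of the response often move together. Serum amyloid A proteins and the alpha-1-acid glycoproteins Orm1 and Orm2 are the classical inducible proteins of the mouse, Saa4 is the form made without induction, and Crp, a major acute phase protein in humans, responds little in mice.

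A barcode was taken as a cell if it had 500 or more genes, 2000 or more UMIs (counted RNA molecules) and no more than 30% mitochondrial UMIs. This left 2903 of 8694 barcodes (median 29588 UMIs) for DDC and 8099 of 18316 (median 13215) for DDC and cMet, of which 4 occurred in both libraries. Cells were called Alb-high when albumin was at least 4 times its median in clear non-epithelial cells of the same library, a threshold of 42.0 and 101 UMIs per 10000, and when no other class was clear in them. This gave 2142 and 5586 Alb-high cells (medians 36234.5 and 15626.5 UMIs), beside 423 and 1471 macrophages (medians 20685 and 13077) as the main measure of free RNA. Values given as a pair are for DDC first and for DDC and cMet second. Levels below are UMIs of a gene per 10000 UMIs of the group, with 95% intervals that cover counting error only. Each molecule is read once at its 3' end, so levels of different genes need no correction for length. Hepatocyte genes were high in the Alb-high cells, with Ttr at 116 and 108 and Hnf4a at 1.41 and 1.66, against 7.11 and 6.57 and 0.191 and 0.144 in macrophages. The neutrophil gene S100a8 was near 0 in them, at 0.00841 and 0.0247. Macrophage genes were visible, however. In Alb-high cells of the DDC and cMet library C1qa was at 0.402, with a UMI in 42.9% of cells, and Clec4f at 0.308, in 37.3%. Only 72 and 354 Alb-high cells held no UMI of any non-epithelial marker. A further 125 and 259 cells had neither high albumin nor a non-epithelial class. They had more of the biliary and progenitor genes Spp1 (146 against 44.4 in Alb-high cells of the DDC library) and Sox9 (3.20 against 1.18). In the DDC and cMet library Spp1 was at 23.9 against 4.63, Sox9 at 1.53 against 0.230 and Epcam at 0.325 against 0.0219. The biliary keratin gene Krt19 was not higher there (0.00418, on 3 UMIs, against 0.00483). Hnf4a was at 1.71 against 1.66, so these cells are not named as a cell type.

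In GENCODE M21 (GRCm38) the serum amyloid A genes stand side by side on chromosome 7, with Saa3 at chr7:46711998-46715700, Saa4 at chr7:46727998-46732603 and Saa1 at chr7:46740497-46742980 on the minus strand and Saa2 at chr7:46751790-46754313 on the plus strand. Orm1 (chr4:63344560-63348163) and Orm2 (chr4:63362449-63365878) flank their near copy Orm3 on chromosome 4. Orm1 and Orm2 share 67 of the 311 windows of 90 bases in the last 400 bases of their transcripts, so some of their reads cannot be assigned with certainty. Saa1 and Saa2 share no such window, but they are close copies and their counts remain less certain than those of the single genes. Hpx lies at chr7:105591613-105600137, Hp at chr8:109575128-109579172, Lcn2 at chr2:32384633-32388252 and Crp at chr1:172698055-172833031.

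The RefSeq promoter table (GRCm38.p6) held 8 members, all but Orm1 and Hp. The 5 sequences here begin 250 bases before the RefSeq start of each gene and run up to that start, or to the first transcribed base in GENCODE where it comes earlier, 43 bases earlier for Saa2 and 58 for Lcn2. Saa1 and Saa2 are shown as near copies that went together across cells, and Saa4 as the neighbour that went with them less. Lcn2 and Orm2 are shown as the members that were lowest in the DDC and cMet library relative to the other. Capitals mark matches to the C/EBP pattern TTNNGCAA on either strand.
Saa1: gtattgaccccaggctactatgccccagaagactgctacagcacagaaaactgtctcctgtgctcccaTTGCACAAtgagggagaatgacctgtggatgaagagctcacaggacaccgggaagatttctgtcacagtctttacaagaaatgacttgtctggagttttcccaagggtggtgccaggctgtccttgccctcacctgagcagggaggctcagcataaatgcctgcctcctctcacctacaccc
Saa2: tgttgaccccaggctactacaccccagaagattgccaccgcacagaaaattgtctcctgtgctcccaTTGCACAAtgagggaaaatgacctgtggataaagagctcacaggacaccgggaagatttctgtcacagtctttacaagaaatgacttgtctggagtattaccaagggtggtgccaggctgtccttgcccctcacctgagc
Saa4: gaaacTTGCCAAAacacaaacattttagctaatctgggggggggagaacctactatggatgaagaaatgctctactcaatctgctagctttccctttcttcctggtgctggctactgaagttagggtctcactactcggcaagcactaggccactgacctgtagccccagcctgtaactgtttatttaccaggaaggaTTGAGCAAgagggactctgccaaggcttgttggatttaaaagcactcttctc
Orm2: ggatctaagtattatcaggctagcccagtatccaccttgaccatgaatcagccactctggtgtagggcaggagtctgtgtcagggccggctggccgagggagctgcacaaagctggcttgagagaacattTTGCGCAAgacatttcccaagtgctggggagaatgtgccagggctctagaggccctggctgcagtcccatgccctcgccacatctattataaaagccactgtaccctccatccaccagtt
Lcn2: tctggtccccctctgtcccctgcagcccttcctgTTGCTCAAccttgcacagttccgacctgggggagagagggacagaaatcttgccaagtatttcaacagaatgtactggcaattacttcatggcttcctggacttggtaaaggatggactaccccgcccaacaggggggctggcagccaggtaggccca
They lie at chr7:46742981-46743230 (minus strand), chr7:46751583-46751789 (plus strand), chr7:46732604-46732853 (minus strand), chr4:63362199-63362448 (plus strand) and chr2:32387798-32387989 (minus strand). Over the full table windows, which run 50 bases past the start, Saa1 and Saa2 were 95.3% identical, and Saa1 and Saa4 50.7%. Both Saa1 and Saa2 carry the same match, TTGCACAA, at almost the same distance from their starts. The pattern occurred in 7 of the 8 member windows, Crp being the exception, and in 10.8% of all 32817 windows of this length. The STAT pattern TTCNNNGAA (8.29% of all windows), the pattern CTGGGAA of interleukin-6-induced genes (11.1%) and the NF-kappaB consensus (4.50%) matched in none of the 8, which says only that these letters are not in these windows. A match is a stretch of letters and not a measured binding site.

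Haptoglobin and hemopexin, the plasma proteins that bind free hemoglobin and free haem, were by far the most abundant members. In Alb-high cells Hp stood at 87.3 (interval 87.1 to 87.5) in the DDC library and 53.6 (interval 53.4 to 53.7) in the DDC and cMet library, and Hpx at 83.2 (interval 83.0 to 83.4) and 69.9 (interval 69.7 to 70.0). For scale, albumin was at 244 and 421. Both genes had a UMI in at least 99.2% of Alb-high cells after each cell was thinned to 2000 UMIs. Free RNA was visible for both, since macrophages at the same depth had an Hp UMI in 60.0% and 55.6% of cells.

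Lcn2, the iron-siderophore binding protein lipocalin 2, was at 20.05 (interval 19.95 to 20.15) in the DDC library and 4.38 (interval 4.34 to 4.42) in the DDC and cMet library. After thinning, 86.0% and 39.2% of Alb-high cells had an Lcn2 UMI (98.2% and 71.6% unthinned), against 18.4% and 8.02% of macrophages. Neutrophils, which store lipocalin 2, were too few for a comparison: 5 cells of the DDC and cMet library held 41 Lcn2 UMIs, a level of 12.6 (interval 9.04 to 17.1).

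The alpha-1-acid glycoproteins, which carry drugs and lipids in plasma, differed from each other in level. Orm1 was at 11.8 (interval 11.7 to 11.9) and 12.5 (interval 12.4 to 12.5), and Orm2 at 0.477 (interval 0.462 to 0.493) and 0.205 (interval 0.197 to 0.213). At 2000 UMIs per cell an Orm1 UMI was seen in 71.7% and 85.1% of Alb-high cells (94.9% and 96.6% unthinned) and in 11.8% and 17.8% of macrophages. For Orm2 the thinned shares were 6.26% and 3.67% of Alb-high cells (34.7% and 23.9% unthinned) and 0.00% and 0.612% of macrophages.

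The serum amyloid A genes, which encode apolipoproteins of acute phase HDL, were low on this scale. Saa1 stood at 2.53 (interval 2.49 to 2.56) and 1.70 (interval 1.68 to 1.72), and Saa2 at 1.11 (interval 1.09 to 1.14) and 0.625 (interval 0.611 to 0.638). Saa4 had 0.661 (interval 0.643 to 0.680) in the DDC library and 2.01 (interval 1.98 to 2.03) in the DDC and cMet library, so it lay below Saa1 in the first and above it in the second. Saa3, the form best known from macrophages and fat, was at 0.0819 (interval 0.0756 to 0.0887) and 0.0931 (interval 0.0879 to 0.0986). Macrophages had 0.00533 (interval 0.00173 to 0.0124) on 5 UMIs in the DDC library, below the Alb-high cells, and 0.175 (interval 0.157 to 0.195) with cMet, above them. The latter rests on 1.84% of macrophages with a UMI, 1 of which held 26.0% of their Saa3. Most Saa3 of Alb-high cells sat in a few cells, with 50% of its UMIs in 6 and 9 cells. At 2000 UMIs per cell, Saa1 was seen in 18.0% and 19.5% of Alb-high cells (48.1% and 47.7% unthinned) and 2.13% and 1.84% of macrophages. Saa4 was seen in 13.6% and 29.1% of Alb-high cells (68.9% and 70.2% unthinned) and 0.709% and 3.06% of macrophages. Crp, the pentraxin of human inflammation tests, was at 2.26 (interval 2.22 to 2.29) and 2.37 (interval 2.35 to 2.40), close in both libraries. Its thinned shares were 34.6% and 34.0% of Alb-high cells (89.4% and 74.5% unthinned), against 3.07% and 3.06% of macrophages.

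Apart from Saa3, every member was at least 4.14 times as high in Alb-high cells as in the highest of 5 non-epithelial classes with at least 15 cells in the DDC library, and at least 2.77 times in the DDC and cMet library. Saa4 and Saa2 set these minimums, both against T or NK cells, and the largest excess was 21.1 times, for Saa1 in the DDC library. The minimum for Saa2 rests on 2 UMIs in 17 cells, a level of 0.225 (interval 0.0273 to 0.813). The minimum for Saa4 and the excess of 21.1 times for Saa1 also rest on few UMIs of the non-epithelial class. Macrophages of that library had Saa2 at 0.0340, against 0.625 in Alb-high cells. The cells with low albumin and no class split the members. Hp (68.5 and 70.1), Hpx (45.9 and 66.8), Lcn2 (12.3 and 3.54) and Crp (1.47 and 2.52) were well above the non-epithelial classes in them. Orm1 was at 1.15 and 1.91, near its highest non-epithelial level of 0.931 and 1.69. Saa1 was at 0.196 and 0.240, against 0.120 and 0.202 in its highest non-epithelial class and 2.53 and 1.70 in Alb-high cells.

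**Figure D1:**
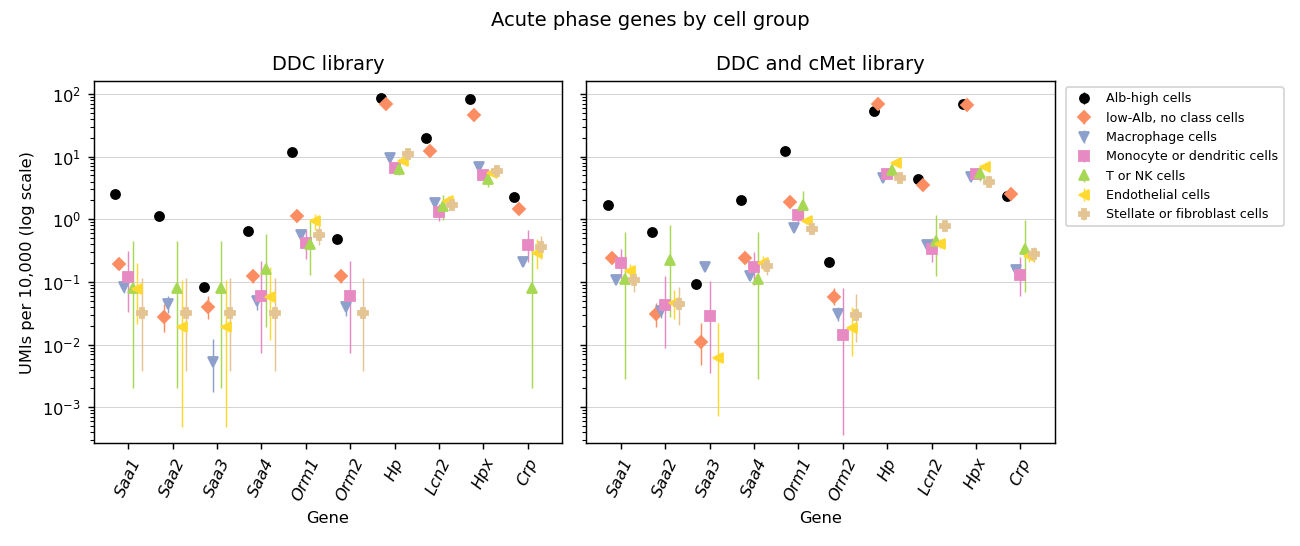
Level of each member (vertical axis, UMIs per 10000, log scale) in Alb-high cells, in cells with low albumin and no class and in 5 non-epithelial classes, for each library. Bars are exact Poisson 95% intervals for counting error, classes under 15 cells and levels of 0 are not drawn, and the black points of Alb-high cells lie above the non-epithelial classes for every member but Saa3.

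The members differed most in how they were spread over cells. By the share of cells that hold their UMIs, Hp, Hpx and Crp were the most even members in the DDC library. The cells needed to reach 50% of the UMIs of each were 17.5%, 17.8% and 21.7% of its Alb-high cells. For DDC and cMet they were 13.0%, 14.3% and 15.1%. Orm1, at 14.98%, was more even than Hp and Hpx in that library. These UMIs are not scaled by depth, so deeper cells weigh more, and for albumin the shares were 18.7% and 17.0%. With each cell weighted equally the order differed. The highest 10% of Alb-high cells with cMet then held 29.4% of Crp, 24.5% of Hp, 22.5% of Hpx and 21.5% of Orm1. To reach 50% of its UMIs, Saa1 needed 23 of 2142 cells and 176 of 5586. Saa2 was held by fewer still, with 50% of its UMIs in 5 and 37 cells. A single cell of the DDC library had 2501 Saa1 UMIs, 13.2% of the Saa1 in all Alb-high cells, and a single cell had 2006 Saa2 UMIs. The median Alb-high cell had 0 Saa1 UMIs in both libraries, while the 95th percentile was 10.3 and 8.08 and the highest cell 182 and 139 per 10000. Orm1, in contrast, had medians of 10.3 and 11.6 and 95th percentiles of 32.0 and 24.6.

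Weighted equally over cells, the highest 1% of Alb-high cells held 51.3% and 43.1% of the summed Saa2 level, 28.8% and 16.9% of Saa1 and 24.8% and 23.6% of Orm2. For Orm1 the figure was 5.31% and 3.08%, and for Hp 3.22% and 4.28%. For Lcn2 it was 4.58% and 9.04%. Such shares are also raised by sparse counts. The variance over the mean at 2000 UMIs per cell, which is 1 for pure counting and grows with the level, was 7.61 and 3.27 for Saa1 (rank 23 of 7065 and 52 of 8992 genes) and 10.1 and 5.46 for Saa2 (ranks 16 and 23). The far more abundant Hp had 6.48 and 5.47 (ranks 30 and 22) and Hpx 6.26 and 5.20. On this measure both were below Saa1 in the DDC library and above it in the DDC and cMet library. Orm2 had 3.35 in the DDC library but 1.15 with cMet, as near to pure counting there as Crp (1.13 and 1.11). For Lcn2 it was 3.10 and 2.33, the opposite order to its shares. Where a few cells hold a large part of a gene's UMIs, as for Saa1, Saa2 and Saa3, the counting interval of the level is narrower than the spread between cells.

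**Figure D2:**
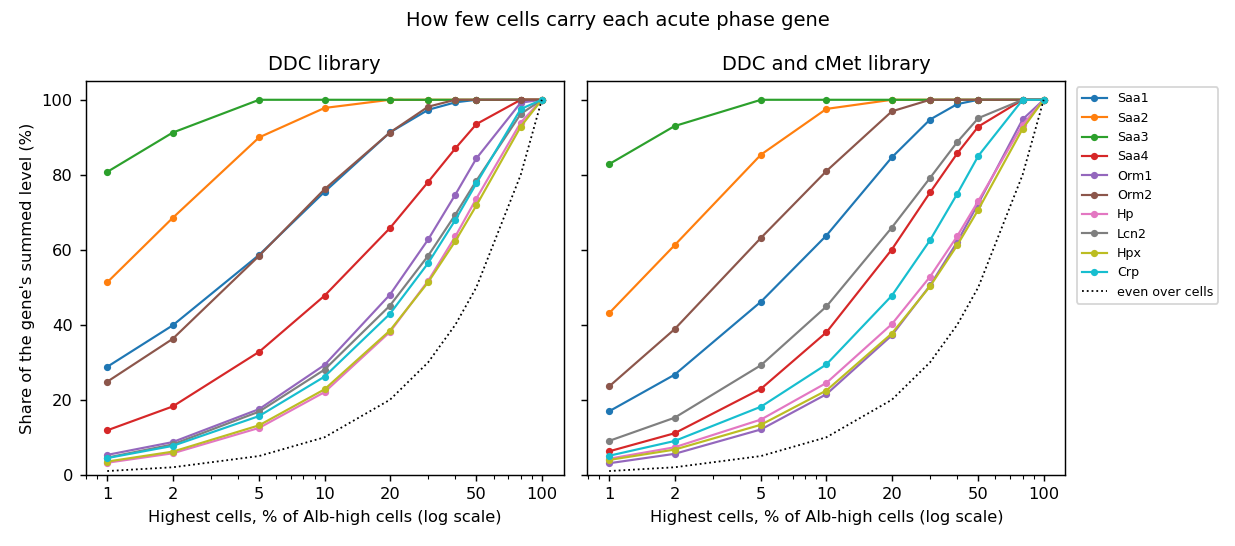
Share of each member's summed level (vertical axis, %) held by the highest cells for that member (horizontal axis, % of Alb-high cells, log scale), with each cell weighted equally. Saa3, Saa2, Saa1 and Orm2 rise far above the dotted line of an even spread, and Hp, Hpx and, in the DDC and cMet library, Orm1 stay closest to it.

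Cells richest in Saa1 also had more Orm1, Lcn2, Hpx and Orm2. The 22 Alb-high cells of the DDC library with the highest Saa1 (the top 1%, chosen by Saa1 itself) had Orm1 at 50.9 against 11.2 in the other 2120, Lcn2 at 63.1 against 19.4 and Hpx at 184 against 81.6. Hp was at 153 against 86.3, and Orm2 at 7.34 against 0.371. Saa4 was at 0.942 against 0.657, Crp at 2.38 against 2.25 and albumin at 283 against 244. Plet1 was lower in them (1.12 against 2.13), as was EGFP (0.436 against 1.09). The 56 highest cells of the DDC and cMet library gave smaller contrasts, with Orm1 at 21.7 against 12.4 and Lcn2 at 11.6 against 4.30. These cells were also deeper, with a median of 47662 UMIs against 35845.5 in the DDC library and 27525.5 against 15497.5 in the other, and the part of depth in the contrast was not tested. Of the top 1% of cells for Saa2, 13 of 22 and 28 of 56 were also in the top 1% for Saa1, while it was 0 of 22 and 1 of 56 for Saa4 and 2 of 22 and 0 of 56 for Hp.

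Across Alb-high cells thinned to 10000 UMIs (1672 and 3089 cells; those of 1 library share its mice, so these correlations are descriptions), the members fell into a few sets. Hp and Hpx had Pearson's r of 0.67 and 0.71 on the log2(UMIs + 1) scale. Lcn2 went with Hpx (0.50 and 0.57) and Hp (0.44 and 0.60). Saa1 and Saa2 had 0.66 and 0.57, the pair whose promoters are printed above as near copies. Saa1 went with Orm1 (0.39 and 0.22) more than with Hp (0.02 and 0.01) or Crp (0.07 and 0.01). With Saa4 the r was 0.21 and 0.22 for Saa1 and 0.10 and 0.01 for Saa2. Orm1 went with albumin (0.48 and 0.40) and not with Hp (-0.13 and 0.02). Saa4 ran against Hp in the DDC and cMet library (-0.35) and weakly so in the DDC library (-0.12). Crp had r of -0.06 to 0.13 with the other members, weak throughout. Outside the members, the 5 genes most like Lcn2 of 6376 considered were Cstb, a cysteine protease inhibitor (0.37 and 0.48), Trf, which encodes transferrin (0.39 and 0.36), the acute phase glycoprotein gene Lrg1 (0.47 and 0.30), Cybb (0.30 and 0.40) and Ifitm3 (0.32 and 0.29). For Saa1 these were Mup3, Gnmt, Wfdc21, Apoc3 and Serpina1c, with r of at most 0.26, and for Orm2 they were Lrg1, Apoc2, Ttr, Kng1 and Gsta1, with r of at most 0.21; both sets are weak in these sparse counts.

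The Sox9 reporter divided the members sharply. EGFP was a feature of the DDC library alone, and cells not called non-epithelial were binned by it: 1327 with 0 EGFP UMIs, 490 with over 0 to under 1 per 10000, 298 with 1 to under 4, 102 with 4 to under 10 and 50 with 10 or more. Wild-type mice carry no reporter, so the cells at 0 mix theirs with reporter-negative cells of the treated mice. Orm1 in these bins, in this order, was 13.5, 11.7, 7.58, 1.96 and 2.15. Saa1 was 2.67, 2.95, 1.54, 0.282 and 0.125, and Saa2 1.27, 1.34, 0.318, 0.133 and 0 UMIs in the last bin, which allows up to 0.0125. Both thus kept their level up to an EGFP of 1 and were lower from there on. Saa4 was 0.769, 0.620, 0.452, 0.205 and 0.142, and Orm2 0.434, 0.666, 0.306, 0.0538 and 0.125.

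The other members did not follow. Hp in the same bins was 72.4, 98.8, 103, 89.5 and 69.8, Lcn2 17.9, 22.0, 21.4, 15.8 and 17.0 and Crp 2.25, 2.21, 2.23, 1.89 and 1.85. Hpx kept its level up to an EGFP of 4 and was then lower, at 77.9, 89.5, 88.1, 60.1 and 31.8. Albumin was 267, 236, 177, 107 and 82.8, and the share of cells that were Alb-high went from 97.1% in the first bin to 64.0% in the last. Sox9 (0.830 to 4.00) and Spp1 (18.5 to 248) were higher at high EGFP.

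Between the 152 cells with EGFP of 4 or more and the 1327 at 0, 6 of the 10 members were at least 2-fold lower and 0 at least 2-fold higher, where 19.6% of 11744 genes passed 2-fold in either direction (6.72% lower). The members' median log2 ratio was -2.27, against 0.29 over all genes. The log2 ratio was -3.54 (interval -3.77 to -3.32) for Saa1, -3.84 (interval -4.22 to -3.48) for Saa2, -2.06 (interval -2.32 to -1.81) for Saa4, -2.74 (interval -2.82 to -2.67) for Orm1 and -2.48 (interval -2.90 to -2.10) for Orm2. Saa3 had -4.18 on 4 UMIs in the EGFP cells. The ratio was 0.20 for Hp, -0.14 for Lcn2, -0.62 for Hpx and -0.26 for Crp. Relative to albumin, itself -1.43, the ratios ran from -2.40 (Saa2) through -1.31 (Orm1) to 1.29 (Lcn2) and 1.63 (Hp). Within Alb-high cells alone (115 against 1289), the same 6 members were at least 2-fold lower, with Saa1 at -3.22 and Orm1 at -2.42. At high EGFP the levels of Saa2 (0.0886), Saa4 (0.184) and Orm2 (0.0775) were near those of the highest non-epithelial class (0.0799, 0.160 and 0.0600). Saa1 (0.230) and Orm1 (2.02) were above their own (0.120 and 0.931). The highest class was T or NK cells for Saa2 and Saa4 and monocytes or dendritic cells for Saa1 and Orm2. Its levels rest on few UMIs and are given without intervals. The EGFP cells held 64, 133 and 56 UMIs of Saa2, Saa4 and Orm2. Whether these genes were at the level of free RNA there cannot be told from so few UMIs of the other class. As a mean over cells the Saa1 ratio was -1.91 and the Saa2 ratio -2.31, less extreme than the sums. The EGFP cells were deeper (median 48294.5 against 25382 UMIs). At 2000 UMIs per cell, 19.7% of them and 80.2% of the cells at 0 had an Orm1 UMI (unthinned 75.0% and 95.6%), against 11.8% of macrophages.

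**Figure D3:**
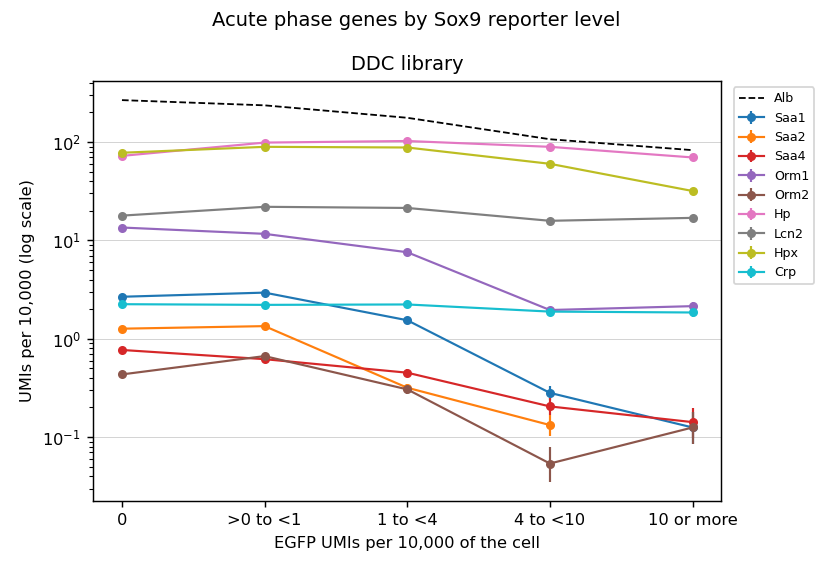
Level of 9 members and of albumin (dashed) in the DDC library (vertical axis, UMIs per 10000, log scale) by the EGFP of the cell (horizontal axis). Bars are Poisson 95% intervals, Saa3 and levels of 0 are not drawn, and Orm1 falls from 13.5 to 2.15 while Hp goes from 72.4 to 69.8.

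Other secreted liver proteins were lower at high EGFP as well. Of 21 measured genes of other positive acute phase proteins, 8 were at least 2-fold lower at high EGFP and 2 higher. The lowest were the serine protease inhibitor genes Serpina3k (-3.30, interval -3.39 to -3.21) and Serpina3m (-2.97), the fibrinogen-like hepatokine gene Fgl1 (-2.32) and Hamp, which encodes the iron hormone hepcidin (-2.01). Among 12 proteins that fall in the acute phase, 5 were lower and 1 higher, led by the apolipoprotein gene Apoa4 (-2.12), Igf1 (-1.56), albumin and Fetub (-1.26), so genes of both lists were among the lower ones. Of 9 cytokine receptor genes, Il10rb (1.34) and the oncostatin M receptor gene Osmr (1.28) were higher and Il1rap, the shared chain of the interleukin-1 receptor, lower (-1.21), with Il6ra at -0.93. Of 4 measured cytokines of the interleukin-6 and interleukin-1 families, Clcf1 (2.40, interval 2.13 to 2.67) and Lif (1.88, interval 1.40 to 2.36) were higher. Of 15 signalling genes 0 were at least 2-fold higher and 1 lower, with a median of 0.10. Of 6 receptors and carriers, the haptoglobin-hemoglobin receptor gene Cd163 passed it (1.18) on 28 and 63 UMIs. It was a macrophage gene here (below), and the part of free RNA in its ratio was not tested.

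Along Plet1, a surface protein of progenitor cells, Orm1 and Saa4 were lower in cells with more of it. In Alb-high cells of the DDC library Orm1 in bins of Plet1 at 0, over 0 to under 1, 1 to under 2, 2 to under 4 and 4 or more per 10000 was 17.3, 16.6, 12.1, 8.11 and 4.78. In the DDC and cMet library it was 12.8, 12.9, 10.1, 8.24 and 5.72. Saa4 was 1.22, 0.793, 0.519, 0.489 and 0.299 in the first and 2.28, 1.42, 0.933, 0.609 and 0.621 in the second. Both genes were thus lower in the highest Plet1 bin than at 0 in both libraries. In the top bin with cMet, 1 cell held 24.8% of the Orm1 UMIs. The share of day-0 and treated mice in each bin is not known, so Plet1 cannot be told apart from treatment here. The median depth of the bins was 12715, 42649, 41649.5, 42426 and 39685 UMIs for DDC, and 10270, 41675.5, 29939, 11320 and 3522 for DDC and cMet, where the highest bin was the shallowest; the part of depth was not tested.

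Hp and Lcn2 were higher in every bin with Plet1 than at 0. Against the bin before it, the top bin was lower again for Lcn2 in both libraries and for Hp in the DDC library. In the top bin with cMet, 1 cell held 421 of the 1176 Lcn2 UMIs. In the DDC library Hp was 68.4, 83.1, 96.6, 97.6 and 89.1 over these bins, and with cMet it was 49.2, 62.6, 72.6, 75.1 and 75.7. Lcn2 was 15.8, 21.2, 24.0, 21.7 and 17.0 and 3.65, 6.09, 7.31, 7.60 and 7.03, with its lowest value at 0 Plet1 in both. Albumin was 354, 289, 234, 196 and 153 and 434, 409, 341, 307 and 289. Saa1 was 2.83, 4.66, 1.58, 2.25 and 0.752 in the DDC library, with no steady order, and 1.78, 1.79, 0.869, 0.692 and 0.520 with cMet. Saa2 was 1.04, 2.57, 0.491, 0.991 and 0.0671 and 0.594, 0.954, 0.277, 0.0637 and 0.0657. Both were lowest in the top 2 bins with cMet, while 492 of the 943 Plet1-positive cells there fell in the bin under 1.

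In the DDC library 1509 Alb-high cells had a Plet1 UMI and 633 had none. Between them 1 of 10 members passed 2-fold, near the 9.18% of 12335 genes that did so: Saa4, with a log2 ratio of -1.18 (interval -1.27 to -1.09). Thinned to 2000 UMIs it was -0.91 and no longer passed. Orm1 had -0.71 (interval -0.73 to -0.69), Hp 0.42 (interval 0.41 to 0.43) and Lcn2 0.41 (interval 0.39 to 0.44), and the other 6 lay between -0.25 and 0.26. For Saa2, 0.11 became -1.28 without the highest 1% of cells in each group. In the DDC and cMet library, 943 against 4643 cells gave 0 of 10 members past 2-fold (5.18% of 12704 genes). Saa4 was at -0.91 (interval -0.95 to -0.86), Lcn2 at 0.83 (interval 0.80 to 0.85), Hp at 0.43 (interval 0.42 to 0.43) and Orm1 at -0.13 (interval -0.15 to -0.12). With at least 2 Plet1 UMIs required, Saa4 reached -1.27. Relative to albumin, with DDC first, Orm1 was at -0.03 and 0.05 and Saa4 at -0.50 and -0.72. On the same scale Hp was at 1.10 and 0.61 and Lcn2 at 1.10 and 1.02. Cells with a Plet1 UMI were over 3 times deeper than those without (medians 41646 and 12715 for DDC, 34532 and 10270 UMIs for DDC and cMet). In cells with at least 10000 UMIs the ratios were -1.22 and -0.97 for Saa4 and 0.39 and 0.81 for Lcn2. At 2000 UMIs per cell Plet1 was seen in 28.1% and 4.64% of Alb-high cells and in 1.42% and 0.544% of macrophages.

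**Figure D4:**
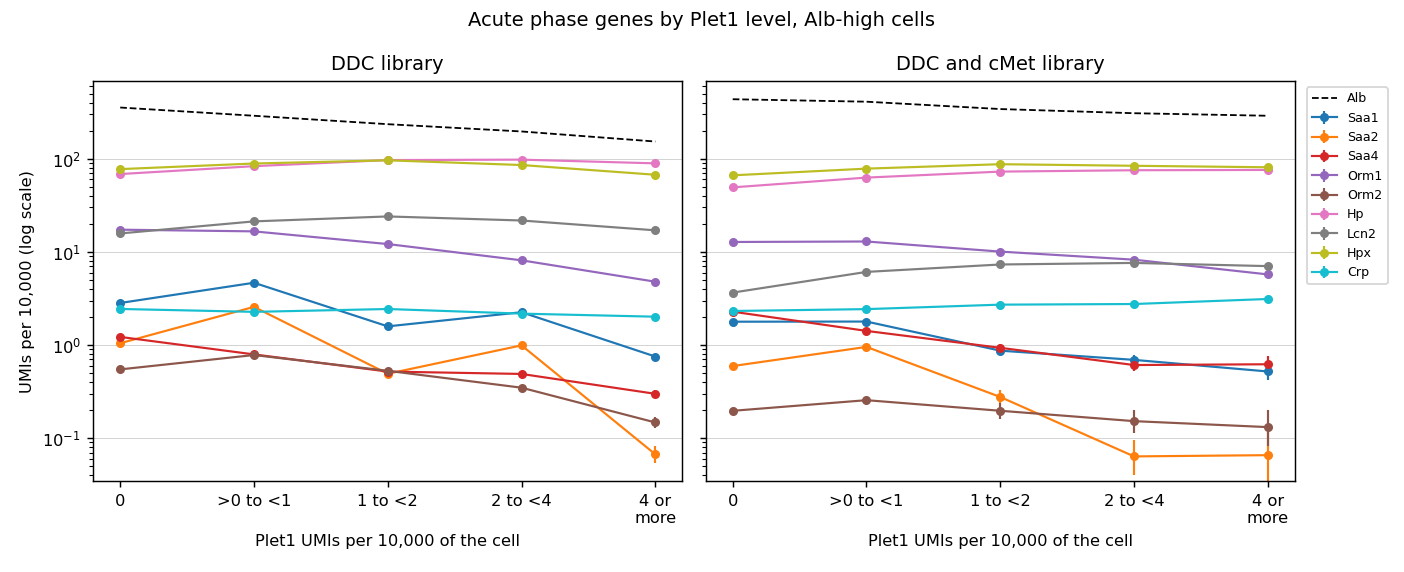
Level of 9 members and of albumin (dashed) in Alb-high cells (vertical axis, UMIs per 10000, log scale) by the Plet1 level of the cell (horizontal axis), for each library. Bars are Poisson 95% intervals, Saa3 is not drawn, and Orm1 ends at 4.78 and 5.72 while Lcn2 is lowest at 0 Plet1 in both libraries.

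Among the related genes, the lipopolysaccharide co-receptor gene Cd14 (1.15 and 1.51) and Il1rn, the interleukin-1 receptor antagonist gene (1.27 and 1.34), were the 2 of 21 positive acute phase genes past 2-fold upward in both libraries. Serpina3k was at -0.996 and -0.412 and Fgl1 at -0.76 in the DDC library. Of the cytokine receptor genes, Osmr was higher in both (1.25, interval 0.77 to 1.77 and 1.74, interval 1.32 to 2.16), Il10rb passed 2-fold in the DDC library (1.12; 0.87 in the other), and Il1rap was at -1.02 and -0.53. The ligand genes Lif (1.66, DDC library) and Clcf1 (1.48 and 1.41) were higher. Of the 12 negative acute phase genes and the 16 signalling genes, 0 passed 2-fold in either library. The toll-like receptor gene Tlr2 was at 0.61 and 1.49.

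H19, an imprinted fetal RNA that is switched on again in some liver tumours, did not divide the members. In the DDC and cMet library, 565 Alb-high cells had an H19 UMI and 5021 had none. All 10 log2 ratios lay between -0.29 (Saa2) and 0.27 (Lcn2), and 0 of 10 passed 2-fold, where 1.64% of 12704 genes did. Orm1 had 12.8 with and 12.4 without H19, Hp 57.4 and 52.9, and Lcn2 5.14 and 4.25. At an H19 level of 4 or more per 10000 (206 cells) Orm1 was at 11.4, Hp at 66.2, Lcn2 at 6.08 and Saa1 at 1.38. H19-positive cells were again deeper (median 30639 against 13182 UMIs), and the share of day-0 and treated mice on either side is not known. At 2000 UMIs per cell H19 was seen in 4.30% of Alb-high cells and 0.884% of macrophages (10.1% and 4.55% unthinned). In all of the lists of related genes, 1 gene passed 2-fold, Cd163 on 2 UMIs against 79. The part of free RNA from macrophages in this ratio was not tested.

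Between the libraries, the Alb-high cells of the tumour-model pool had less Lcn2 and more Saa4. The log2 ratio of the DDC and cMet library over the DDC library was -2.19 (interval -2.21 to -2.18) for Lcn2, 4.58-fold lower, -1.22 (interval -1.29 to -1.15) for Orm2 and 1.60 (interval 1.56 to 1.65) for Saa4, 3.03-fold higher. These were the 3 of 10 members past 2-fold, where 19.9% of 13682 genes passed it (5.90% higher and 14.0% lower), and the members' median of -0.41 stood beside -0.32 over all genes. Orm2 did not pass 2-fold after thinning (-0.64) or without its highest 1% of cells (-0.81).

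Hp was at -0.70 (interval -0.71 to -0.70), Hpx at -0.25, Saa1 at -0.57 and Saa2 at -0.84. Without the highest 1% of cells Saa1 came to 0.00 and Saa2 to -0.02, so the ratio of both was near 0 in the remaining cells. Orm1 and Crp were nearly level, at 0.08 (interval 0.07 to 0.09) and 0.07 (interval 0.05 to 0.10). Albumin was higher in the DDC and cMet library (0.78), and relative to it Saa4 was at 0.82, Crp at -0.71, Orm1 at -0.70 and Lcn2 at -2.98. The cells were themselves chosen by albumin, with a threshold of 42.0 for DDC and 101 for DDC and cMet. The albumin ratio and the ratios relative to albumin thus depend on this choice, and its part in them was not tested. Spp1 (44.4 against 4.63), Sox9 (1.18 against 0.230) and Plet1 (2.12 against 0.278) were higher in the Alb-high cells of the DDC library, and their part in the ratios was not tested. At 0 Plet1, Lcn2 stood at 15.8 in the DDC library and 3.65 in the other, and Saa4 at 1.22 and 2.28. The median depth of Alb-high cells was over 2 times higher in the DDC library; in cells thinned to 2000 UMIs Lcn2 was at -2.28 and Saa4 at 1.32.

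Of 21 other positive acute phase genes, Serpina3k was at least 2-fold higher (1.53, interval 1.52 to 1.54) and Cd14 (-2.76, interval -2.83 to -2.69) and Il1rn (-1.07) lower, with Lrg1 at -0.79. Among 12 negative ones the corticosteroid-binding globulin gene Serpina6 was higher (1.21), Igf1 was at 0.96 and Fetub at 0.93. Of 10 cytokine receptor genes, Osmr (-2.01, interval -2.26 to -1.76) and Il10rb (-1.12) were lower and Il1rap higher (1.91, interval 1.83 to 1.98). Of 16 signalling genes 1 passed 2-fold, Socs3, the feedback inhibitor of STAT3 signalling (1.05, interval 0.92 to 1.17), beside Cebpa at 0.96, Nfkb1 at -0.89 and Jak2 at -0.74. Among 9 receptors and carriers, Cd163 (-1.46) and Tlr2 (-1.42) were lower and the Fc receptor gene Fcgr1 higher (1.16). Cd163 was a macrophage gene here (below) and was lower in macrophages of the DDC and cMet library too. The part of free RNA in these ratios was not tested.

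**Figure D5:**
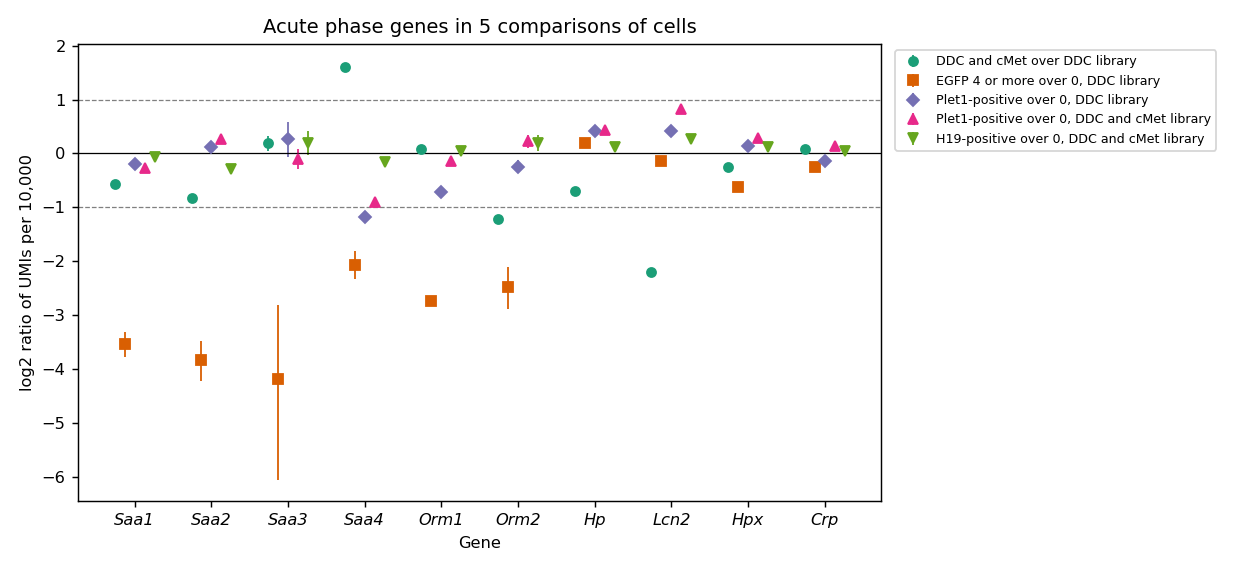
Log2 ratio of UMIs per 10000 (vertical axis) for each member in 5 comparisons of cells, with intervals for counting error. Dashed lines mark 2-fold, Lcn2 is lowest and Saa4 highest between the libraries, the 6 serum amyloid A and Orm genes are below the lower line at high EGFP, and the H19 comparison stays close to 0.

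Of the 10 cytokine ligands listed, Il1b, Tnf and Il6 are the best known drivers of the response, and their levels were higher in macrophages than in Alb-high cells. Il1b was at 1.46 and 4.27 in macrophages and 0.0115 and 0.0532 in Alb-high cells. Tnf was at 0.0863 and 2.03 in macrophages against 0.00414 and 0.0259, and Il6 at 0.0522 and 0.246 against 8.01e-04 and 0.00397. All 3 were thus higher in macrophages of the DDC and cMet library. They were also higher in its Alb-high cells (log2 ratios 2.21, 2.65 and 2.31), at levels low enough that free RNA from macrophages cannot be told apart from expression. Lif, Clcf1 and Ctf1 had another pattern. Lif was higher in cells with low albumin and no class (0.112 and 0.0251) than in macrophages (0.00746 and 0.00101), and lower in the Alb-high cells of the DDC and cMet library (-4.11, interval -4.72 to -3.56). Clcf1 was at 0.355 and 0.180 in the cells with no class, 0.109 and 0.104 in macrophages and 0.0827 and 0.0273 in Alb-high cells. Ctf1 was at 0.145 and 0.0893, 0.0213 and 0.00710, and 0.0923 and 0.0521, in the same order. Il1a was highest in endothelial cells (1.05 and 1.67), and Il22 had 0 UMIs in each of the 7 groups compared in either library. The receptor genes Il6ra (0.244 and 0.422), Il6st (0.541 and 0.470) and Tnfrsf1a (0.620 and 0.453) were detected in Alb-high cells. Il6st, which encodes the gp130 chain shared by this cytokine family, was far higher in endothelial cells (14.7 and 12.7). Cd163 (2.91 and 0.424) and the haem oxygenase gene Hmox1 (12.5 and 15.9), which take up and break down what Hp and Hpx bind, were macrophage genes here. Lrp1, the hemopexin receptor, was at 7.48 and 6.50 in macrophages and 1.24 and 1.54 in Alb-high cells.

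Position along the lobule was scored in Alb-high cells from 6 portal and 6 central genes, such as Cyp2f2 and Cyp2e1, and the most portal 714 and 1862 cells were compared with as many of the most central. In the DDC library 1 of 10 members passed 2-fold, near the 7.47% of 11689 genes: Saa3, at -1.68, which came to -0.59 without the highest 1% of cells. Toward the portal side Hp was at 0.80 (interval 0.79 to 0.81), Hpx at 0.58 and Lcn2 at 0.54, and Orm1 at -0.78 (interval -0.80 to -0.75). Saa1 and Saa2, of which a few cells hold a large part, were each at 0.61. Portal and central cells of this library also differed in Spp1 (67.5 and 8.56) and in depth (medians 42675 and 26428 UMIs), whose part was not tested. In the DDC and cMet library 0 of 10 members passed 2-fold (3.91% of 12053 genes). Saa4 was at 0.95, Saa2 at -0.95 (interval -1.03 to -0.86), Hpx at 0.47 and Saa1 at 0.32.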

How the data were processed

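UMI counts per gene and barcode were used as the authors deposited them, with the feature and barcode lists of each matrix; Cell Ranger 5.0.1 made them, per the file headers, whereas version 6.0.1 stands, beside mm10 and Seurat 4.0.1, in the submitters' processing notes. Filters applied before deposit are not given in the sources used here. From these counts, cells were kept by the thresholds in the report and scored with 69 markers of 8 non-epithelial classes. A cell with at least 10 marker UMIs per 10000, at least 3 markers and albumin under its threshold was called non-epithelial, and an albumin-rich cell with at least 50 was left out of the Alb-high group as mixed (68 and 227 cells). No doublet caller was run. The scoring thresholds were set after seeing the data, and the bins and the named-gene rule were written down earlier. The members and all lists were chosen with earlier results of these data known, and 1 listed gene is not reported here.

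Ratios need at least 50 UMIs over both sides, and a side at 0 is set to 3 UMIs. Intervals are exact Poisson for sums; UMIs of 1 cell are not independent draws, so they are too narrow for differences between cells. Of each list of related genes, up to 4 per comparison with the largest absolute log2 ratio were named; those with levels by cell class were picked after their values were seen. Of the 10 listed ligands, 7 were measured between the libraries and 6 passed 2-fold. The 11 receptors and carriers gave 0 and 0 past 2-fold along the lobule. Over the same comparison, the DDC library gave 2 other positive, 0 negative, 2 ligand, 1 receptor and 1 signalling genes higher, and the DDC and cMet library 0. Alternatives were 9 chosen at the outset and 2 added after seeing the data, namely leaving out the highest 1% of cells and setting EGFP cells against each other within Alb-high cells. The scripts were tested on simulated counts. Counting intervals used scipy 1.17.1, tables pandas 2.3.3 and numpy 2.4.6, alignments biopython 1.88 and plots matplotlib 3.10.9, all under Python 3.11.15.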

Additional observations from a re-analysis of the deposited data

Results flagged for a closer look

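A few ratios pointed in opposite directions in the DDC library and in the DDC and cMet library; none of these differences was tested, since each library is 1 sample. Between Plet1-positive and Plet1-zero Alb-high cells, Orm2 had a log2 ratio of -0.25 in the DDC library and 0.22 with cMet, and Crp had -0.14 and 0.13. All 4 values are under 2-fold.

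Between the portal and the central end of the lobule, Saa2 was at 0.61 and -0.95, and a few cells hold most of its UMIs. Saa4 was at -0.40 and 0.95, Orm1 at -0.78 and 0.14, and Crp at -0.12 and 0.29. The portal end of the DDC library also had the higher Plet1 (2.77 against 1.12), and in the DDC and cMet library Plet1 was at 0.339 and 0.128; its part in these ratios was not tested.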

How the results depend on the processing

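The count of members past 2-fold ran from 2 to 4 between the libraries and from 5 to 6 at high EGFP over all alternatives that could be run. Between the portal and central ends it was 1 in place of 0 in the DDC and cMet library with the stricter cell filter, with at least 10000 UMIs and with an albumin threshold 2 times higher; in the DDC library it was 0 in place of 1 without the highest 1% of cells and after thinning, where Saa3 fell under the 50 UMIs required and was not measured, and 2 without cells holding any non-epithelial marker UMI. For Plet1 in the DDC library it was 0 after thinning, 3 without marker UMIs and 2 without the highest 1% of cells, in place of 1. With cMet it was 1 with the higher albumin threshold or without marker UMIs and 2 when 2 Plet1 UMIs were required, in place of 0. For H19 it was 1 in place of 0 without marker UMIs or without the highest 1% of cells. The cause of these moves was not tested. No member past 2-fold turned its direction. Of all member ratios, the sign stayed for 69 of 70 with the stricter filter, 62 of 70 as a mean over cells, 60 of 67 after thinning, 70 of 70 with members and the 20 most abundant genes out of the total, 65 of 70 with the higher albumin threshold, 35 of 41 without marker UMIs and 64 of 70 without the highest 1% of cells. The EGFP comparison without marker UMIs was not run, with 2 cells against 65, and the tdTomato comparison was not run, with a UMI in 2 kept cells. No paired analysis was possible because each group is 1 library.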

Other observations

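The cells set aside because they had both high albumin and a clear non-epithelial class lay between the Alb-high and the non-epithelial cells. In the 68 cells of the DDC library and 227 of the DDC and cMet library, Hp was at 49.5 and 36.9, Hpx at 58.9 and 53.0, Orm1 at 6.51 and 8.60 and Lcn2 at 14.0 and 2.80 UMIs per 10000. Their median depth was 6072.5 and 3225 UMIs.

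In the DDC library, 102 Alb-high cells also had an H19 UMI. Orm1 was at 15.3 in them and 11.5 in the other 2040, Hp at 107 and 86.0, Lcn2 at 22.3 and 19.9 and Saa1 at 8.64 and 2.13. The highest single cell of those with H19 held 2501 of their 3986 Saa1 UMIs.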
